A study of Homo sapiens with 6 samples.

Results

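The 10 genes described here encode proteins by which a tumor cell is seen, or not seen, by T cells, natural killer cells and macrophages. They were CD274, PDCD1LG2, CD276, CD47, PVR, NECTIN2, MICA, MICB, ULBP2 and ULBP3, picked by symbol and matched by NCBI Gene ID, and all 10 were found among the 16623 genes with expression values. Immune checkpoint ligands such as PD-L1 bind inhibitory receptors on lymphocytes, and CD47 binds SIRPα on macrophages and restrains phagocytosis. NKG2D ligands act the other way. They are stress-induced surface proteins that engage the activating receptor NKG2D on natural killer cells and cytotoxic T cells, and HDAC inhibitors are known to change the amount of several of them in tumor cells.

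RNA sequencing was performed on MDA-MB-231, a triple-negative human breast cancer cell line, after culture with PCI-24781, a hydroxamate inhibitor of histone deacetylases (HDACs), or with its solvent DMSO. The 6 conditions were DMSO, 100 nM and 200 nM, each for 24 h and for 48 h. The comparison asks how PCI-24781 changed transcription at each dose and time. Each condition had 1 library from 1 cell line grown without immune cells, so there was no replicate check and no test of significance, and RNA levels do not show the protein on the surface.

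Expression was given as FPKM, in which fragments are scaled by transcript length and by the mapped fragments of the library, so that levels of different genes can be compared. A change was taken as the difference in log2(FPKM + 1) from the DMSO library of the same time, and the call required a 2-fold difference or more together with 1 FPKM or more in at least 1 of the libraries compared. The pseudocount of 1 understates changes of weakly expressed genes. The inferred depth was between 16100000 and 18400000 fragments per library, and the 10 genes rested on between 21 and 3116 fragments per library. A 95% counting interval, on the log2 scale and without the pseudocount, is given beside the main changes. It covers counting error only and not the variation between cultures.

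The line markers VIM (1629 to 2053 FPKM), CD44 (154.04 to 218.74) and EGFR (35.12 to 49.77) were high, while ESR1 (at most 0.04) and PGR (at most 0.03) were near 0. ERBB2, the third receptor of the triple-negative class, was transcribed at 13.16 to 21.36 FPKM. Of 19 immune cell markers, 16 were listed. Without CD68, which tumor cells also express and which ranged from 69.59 to 126.2 FPKM, their summed level was 2.23 to 6.92 FPKM. CD3E, NCAM1 and PDCD1 did not exceed 0.04 FPKM in any library, whereas PTPRC lay between 0.76 and 1.01 FPKM and CD14 between 0.28 and 1.47. KLRK1, a marker of natural killer and T cells, reached 2.04 FPKM in DMSO 48 h and 2.46 at 200 nM 48 h, the highest values besides CD68. The libraries did not order by dose at 48 h. Of the 521 genes called higher at 200 nM 24 h, 517 were above DMSO 24 h at 100 nM 24 h and 496 were above DMSO 48 h at 200 nM 48 h, counting differences of any size. However, 439 were below DMSO 48 h in the library labelled 100 nM 48 h, and 512 were above DMSO 24 h in the DMSO 48 h library. The 521 were chosen against DMSO 24 h, the reference of the 517 and the 512, so these 2 counts are in part fixed by that choice. Of all tested genes, 51.6% were above DMSO 24 h at 100 nM 24 h and 49.6% in DMSO 48 h. Time in culture, exchanged labels and a property of a single library cannot be told apart. Changes at 24 h and the difference between the DMSO libraries all use the DMSO 24 h library, and for each member the values against the DMSO library of the other time are given where a direction turns.

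MICA alone among the 10 genes passed the 2-fold call, and only at 200 nM 24 h. At 100 nM 24 h, 7 genes were above DMSO and 3 below, with a median difference of 0.28 on the log2 scale against 0.01 over all tested genes. None of the 10 tested was called, where 1.35% of all tested genes were called higher and 0.131% lower. At 200 nM 24 h, 8 were above and 2 below, with a median of 0.18 against 0.01, and 1 of the 9 tested was called higher, against 4.47% of all genes called higher and 1.48% lower. At 48 h no gene was called at either dose. At 100 nM 48 h, 9 of the 10 were below DMSO and 1 above (median -0.19, against -0.01 over all genes), and the background of calls was 0.0608% higher and 0.408% lower. At 200 nM 48 h, 6 were above and 4 below (median 0.19, against 0.01), with a background of 0.206% higher and 0.06% lower. Between the DMSO libraries, 8 of the 10 were higher at 48 h than at 24 h and 2 lower (median 0.19, against -0.00), and none was called, against 2.49% of all genes called higher and 0.131% lower. Of all tested genes, 51.6%, 51.2%, 47.2%, 51% and 49.6% were above 0 in these comparisons, in the order given. After median-of-ratios scaling, 2 members were above and 8 below at 100 nM 48 h, and 7 above and 3 below between the DMSO libraries. The members of a comparison share the same libraries, so they are not independent.

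**Figure D1:**
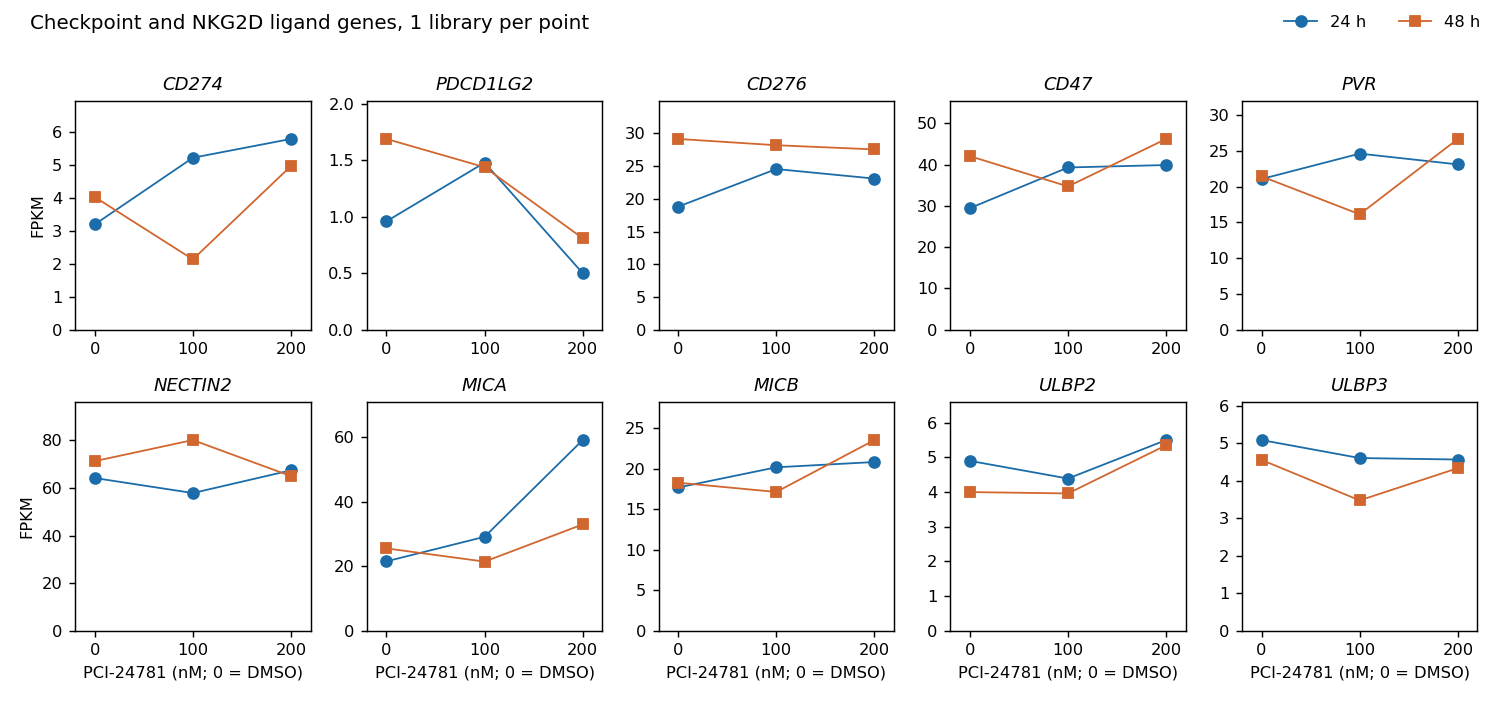
FPKM of each of the 10 genes (vertical axes, starting at 0) by dose of PCI-24781 in nM (horizontal axes, 0 is DMSO), with circles for 24 h and squares for 48 h and 1 library per point. MICA at 200 nM 24 h (59.18 FPKM) stands above its other 5 libraries, and 6 genes have their lowest value at 100 nM 48 h.

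The difference between the DMSO libraries is set beside these values, since both are labelled as solvent only. It also holds time in culture and any exchange of labels, so it does not measure noise alone. It shares the DMSO 24 h library with the 24 h changes and the DMSO 48 h library with the 48 h changes. At both doses for 24 h, CD274, PVR, MICA and MICB differed from DMSO by more than the DMSO libraries differed from each other, which also held for 41.6% of all tested genes at 100 nM and 63.3% at 200 nM. At 100 nM 48 h this held for 6 genes (CD274, PVR, NECTIN2, MICA, MICB and ULBP3), against 31.9% of all genes, and at 200 nM 48 h for 5 (PDCD1LG2, PVR, MICA, MICB and ULBP2), against 30.7%.

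**Figure D2:**
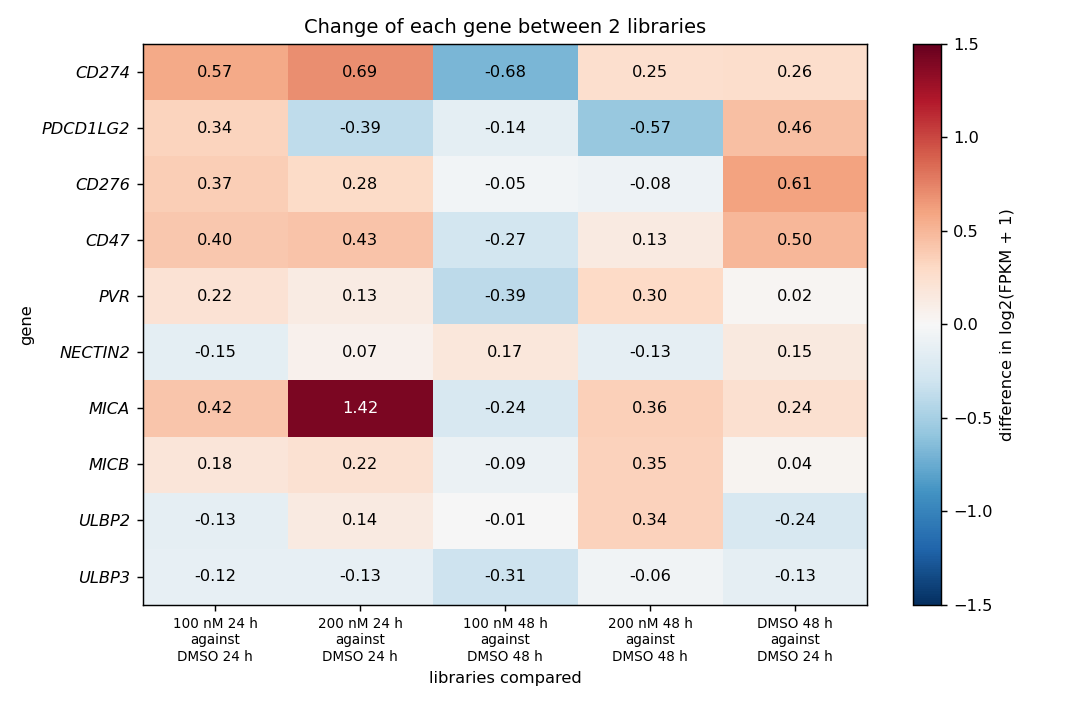
Difference in log2(FPKM + 1) of each gene (rows) between the 2 libraries named under each column, with red for higher and blue for lower than the reference. The value of 1.42 for MICA at 200 nM 24 h is the only difference of at least 1.

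Among the PD-1 ligands, CD274, which encodes PD-L1, was above PDCD1LG2, which encodes PD-L2, in all 6 libraries. CD274 (NCBI Gene ID 29126, chr9:5450503-5470662 in hg19, plus strand) was at 3.19 FPKM in DMSO, 5.21 with 100 nM and 5.78 with 200 nM after 24 h, and at 4.02 in DMSO, 2.13 with 100 nM and 4.96 with 200 nM after 48 h. Its highest value was thus 2.71 times its lowest, and both extremes were treated libraries. The difference from DMSO was 0.57 at 100 nM 24 h (counting interval 0.44 to 0.97) and 0.69 at 200 nM 24 h (0.60 to 1.12). At 48 h it was -0.68 at 100 nM (-1.24 to -0.61) and 0.25 at 200 nM (0.04 to 0.56). CD274 therefore did not reach the 2-fold call in any comparison, and the doses at 48 h lay on opposite sides of DMSO. A 1.5-fold threshold called it higher at 200 nM 24 h, where 12.5% of all genes were called higher, and lower at 100 nM 48 h, where 1.75% were called lower. Against the other DMSO library the CD274 differences were 0.31 and 0.43 with 100 and 200 nM for 24 h, and -0.42 and 0.51 for 48 h, so their directions were kept.

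The promoter of CD274 is shown because PD-L1 is a classical target of interferon-gamma, and genes induced by it often carry gamma-activated sites. The sequence holds the 250 bases before the transcription start in RefSeq (GRCh38.p14, chr9:5450292-5450541, plus strand), with matches to the GC box GGGCGG and to the gamma-activated site TTCNNNGAA on either strand in capitals.
CD274: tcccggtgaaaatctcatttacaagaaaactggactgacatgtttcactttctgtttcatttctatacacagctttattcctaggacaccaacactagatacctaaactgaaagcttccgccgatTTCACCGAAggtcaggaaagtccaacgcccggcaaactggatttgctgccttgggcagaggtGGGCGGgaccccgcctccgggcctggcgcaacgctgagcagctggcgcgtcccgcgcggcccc
The window held 1 match to each. In the RefSeq table of 35116 promoters, 42.6% of windows of this length held a GC box and 6.57% held TTCNNNGAA. Of the 9 members with a promoter in the table, CD274 alone held TTCNNNGAA. The ULBP3 window is uncertain, as the bases after its start site were found in no GENCODE transcript of that gene. The match is a description of the letters and no evidence of binding.

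PDCD1LG2 (NCBI Gene ID 80380, chr9:5510545-5571282 in hg19, plus strand) was at 0.96 FPKM in DMSO, 1.48 with 100 nM and 0.50 with 200 nM after 24 h, and at 1.69 in DMSO, 1.44 with 100 nM and 0.81 with 200 nM after 48 h. Its lowest values were those of the 200 nM libraries, at both times. The difference at 200 nM was -0.39 at 24 h, where the gene was under 1 FPKM in both libraries and so was not tested, and -0.57 at 48 h. Without the pseudocount the log2 ratios at 200 nM were -0.94 (-1.78 to -0.16) at 24 h and -1.06 (-1.72 to -0.44) at 48 h, from 21 and 31 fragments. At 100 nM the difference was 0.34 at 24 h and -0.14 at 48 h. Against the other DMSO library, the 100 nM values turned to -0.12 at 24 h and 0.32 at 48 h, while the 200 nM values, -0.84 and -0.11, kept their direction. Both genes overlap INCR1, a non-coding RNA, in the RefSeq table, and INCR1 had no row of its own here. Whether the counting used the strand is not given in the sources used here.

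CD276 encodes B7-H3, a B7 family protein found on many solid tumors. CD276 (NCBI Gene ID 80381, chr15:73976622-74006859 in hg19, plus strand) was at 18.8 FPKM in DMSO, 24.55 with 100 nM and 23.09 with 200 nM after 24 h, and at 29.15 in DMSO, 28.19 with 100 nM and 27.55 with 200 nM after 48 h. All 3 libraries of 48 h were above all 3 of 24 h, and DMSO 24 h was the lowest. The difference from DMSO was 0.37 (0.26 to 0.51) at 100 nM 24 h and 0.28 (0.17 to 0.42) at 200 nM 24 h. At 48 h it was -0.05 (-0.16 to 0.06) and -0.08 (-0.19 to 0.03). The difference between the DMSO libraries, 0.61 (0.51 to 0.75), was larger than any of these and was called at 1.5-fold, where 8.49% of all genes were called higher, and against DMSO 48 h the 24 h values turned to -0.24 and -0.32. Against DMSO 24 h, the 48 h values turned to 0.56 and 0.53.

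CD47 (NCBI Gene ID 961, chr3:107761941-107809935 in hg19, minus strand) was at 29.43 FPKM in DMSO, 39.29 with 100 nM and 39.88 with 200 nM after 24 h, and at 42.04 in DMSO, 34.69 with 100 nM and 46.2 with 200 nM after 48 h. The DMSO 24 h library was again the lowest, as for 27.1% of all expressed genes, and 200 nM 48 h was the highest. The difference was 0.40 (0.27 to 0.56) and 0.43 (0.29 to 0.58) with 100 and 200 nM for 24 h. For 48 h it was -0.27 (-0.41 to -0.14) and 0.13 (0.01 to 0.27). The DMSO libraries differed by 0.50 (0.37 to 0.66). Against DMSO 48 h, both 24 h differences turned, to -0.10 and -0.07. Against DMSO 24 h, the 48 h values became 0.23 with 100 nM, which turned, and 0.63 with 200 nM.

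PVR and NECTIN2 encode CD155 and CD112, ligands shared by the inhibitory receptor TIGIT and the activating receptor CD226. PVR (NCBI Gene ID 5817, chr19:45147098-45169429 in hg19, plus strand) was at 21.05 FPKM in DMSO, 24.6 with 100 nM and 23.09 with 200 nM after 24 h, and at 21.42 in DMSO, 16.12 with 100 nM and 26.65 with 200 nM after 48 h. The DMSO libraries were nearly equal, and the 48 h doses lay on either side of them. The difference was 0.22 (0.05 to 0.40) and 0.13 (-0.04 to 0.31) at 100 and 200 nM for 24 h, and -0.39 (-0.60 to -0.22) and 0.30 (0.14 to 0.49) for 48 h. PVR overlaps CEACAM19 in the RefSeq table, so some fragments could belong to either gene.

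NECTIN2 was the most abundant of the 10 genes in all 6 libraries. NECTIN2 (NCBI Gene ID 5819, chr19:45349393-45392485 in hg19, plus strand) was at 64.22 FPKM in DMSO, 57.9 with 100 nM and 67.46 with 200 nM after 24 h, and at 71.31 in DMSO, 80.18 with 100 nM and 65.01 with 200 nM after 48 h. The differences, -0.15 (-0.23 to -0.07) and 0.07 (-0.01 to 0.15) at 24 h and 0.17 (0.09 to 0.24) and -0.13 (-0.22 to -0.05) at 48 h, were at most 0.17 in size, where the DMSO libraries differed by 0.15. At 200 nM the direction turned against the other DMSO library, to -0.08 at 24 h and 0.02 at 48 h. NECTIN2 was the only member with its highest value at 100 nM 48 h, the library in which 6 members (CD274, PVR, MICA, MICB, ULBP2 and ULBP3) had their lowest. Of all expressed genes, 17.1% were highest and 19.9% lowest in that library.

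Of the NKG2D ligands, MICA rose at 200 nM 24 h. MICA (NCBI Gene ID 100507436) was at 21.55 FPKM in DMSO, 29.16 with 100 nM and 59.18 with 200 nM after 24 h, and at 25.57 in DMSO, 21.46 with 100 nM and 33.0 with 200 nM after 48 h. The 200 nM 24 h value stood apart from the other 5, which lay between 21.46 and 33.0, and the 200 nM library was the highest at each time. The rise at 200 nM 24 h was 1.42 in log2(FPKM + 1), a difference larger than that of 98.5% of all tested genes. Without the pseudocount it was 2.75-fold, with a counting interval of 1.31 to 1.60 on the log2 scale. At 100 nM 24 h the difference was 0.42 (0.27 to 0.60). At 48 h it was -0.24 (-0.42 to -0.09) at 100 nM and 0.36 (0.21 to 0.52) at 200 nM. Against DMSO 48 h as the reference the call at 200 nM 24 h was kept, with a difference of 1.18, whereas the step from 100 to 200 nM at 24 h, 0.9966 on the log2 scale, was just short of the call.

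MICB, the close copy and neighbor of MICA, was not called in any comparison. MICB (NCBI Gene ID 4277) was at 17.67 FPKM in DMSO, 20.16 with 100 nM and 20.81 with 200 nM after 24 h, and at 18.26 in DMSO, 17.12 with 100 nM and 23.52 with 200 nM after 48 h. Its difference was 0.18 (0.05 to 0.33) and 0.22 (0.09 to 0.38) at 24 h, and -0.09 (-0.24 to 0.05) and 0.35 (0.22 to 0.51) at 48 h. At 48 h the MICA and MICB differences had the same direction at each dose, and at 200 nM they were 0.36 and 0.35. The files place both genes on alternate haplotypes of chromosome 6 in hg19. The MICA entry runs from 2664790 to 31383448, which joins a haplotype coordinate to a chromosome coordinate and is no gene span, and the MICB entry runs from 2777365 to 2793590. How fragments that match both genes or several haplotypes were shared could change either level.

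The promoters of MICA and MICB are shown because the genes are near copies with different changes at 200 nM 24 h. Both sequences are the 250 bases before the transcription start in RefSeq (GRCh38.p14, plus strand, chr6:31403345-31403594 for MICA and chr6:31497895-31498144 for MICB). Capitals mark matches on either strand to the GC box GGGCGG, the CCAAT box CCAAT and the heat shock half-site pair GAANNTTC, which reads the same on both strands.
MICA: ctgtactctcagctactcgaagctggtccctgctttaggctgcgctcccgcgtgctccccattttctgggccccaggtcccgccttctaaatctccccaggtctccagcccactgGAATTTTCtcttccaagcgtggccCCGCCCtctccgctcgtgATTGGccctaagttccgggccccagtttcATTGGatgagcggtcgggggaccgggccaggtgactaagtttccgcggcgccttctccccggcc
MICB: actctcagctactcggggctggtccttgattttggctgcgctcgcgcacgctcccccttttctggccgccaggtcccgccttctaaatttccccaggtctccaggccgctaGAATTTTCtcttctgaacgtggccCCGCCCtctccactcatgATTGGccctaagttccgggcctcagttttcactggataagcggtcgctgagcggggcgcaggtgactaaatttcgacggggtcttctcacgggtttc
The windows were 82.7% identical, at 210 of 254 aligned columns. Each held 1 GC box and 1 GAANNTTC pair, and MICA held 2 CCAAT boxes where MICB held 1. In all promoters of the table, 42.6% held GGGCGG, 32.0% held CCAAT and 5.78% held GAANNTTC. Of the 9 members with a promoter in the table, among them the uncertain ULBP3 window, 4 (CD276, MICA, MICB and ULBP2) held CCAAT. MICA and MICB alone held GAANNTTC. The other half-site order TTCNNGAA (6.62% of promoters), the AP-1 site TGANTCA (6.57%) and the TATA box TATAAA (10.7%) were found in none of the 9. A match or its absence in this window says nothing about binding in these cells.

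ULBP2 and ULBP3 encode NKG2D ligands of the ULBP family, which are related to MHC class I. ULBP2 (NCBI Gene ID 80328, chr6:150263074-150270371 in hg19, plus strand) was at 4.9 FPKM in DMSO, 4.39 with 100 nM and 5.5 with 200 nM after 24 h, and at 4.0 in DMSO, 3.96 with 100 nM and 5.35 with 200 nM after 48 h. The 200 nM libraries were the highest at both times. The difference at 200 nM was 0.14 (-0.20 to 0.54) at 24 h and 0.34 (0.01 to 0.82) at 48 h, and at 100 nM it was -0.13 and -0.01. At 100 nM the direction turned with another reference or scaling, to 0.11 at 24 h against DMSO 48 h and to 0.02 at 48 h after median-of-ratios scaling. ULBP3 (NCBI Gene ID 79465, chr6:150382182-150390283 in hg19, minus strand) was at 5.09 FPKM in DMSO, 4.61 with 100 nM and 4.57 with 200 nM after 24 h, and at 4.56 in DMSO, 3.48 with 100 nM and 4.34 with 200 nM after 48 h. ULBP3 was below the DMSO of its time in all 4 treated libraries, by 0.12, 0.13, 0.31 and 0.06 on the log2 scale, and every counting interval included 0. Against DMSO 48 h the 24 h values were 0.01 and 0.00, so the direction at 24 h turned.

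**Figure D3:**
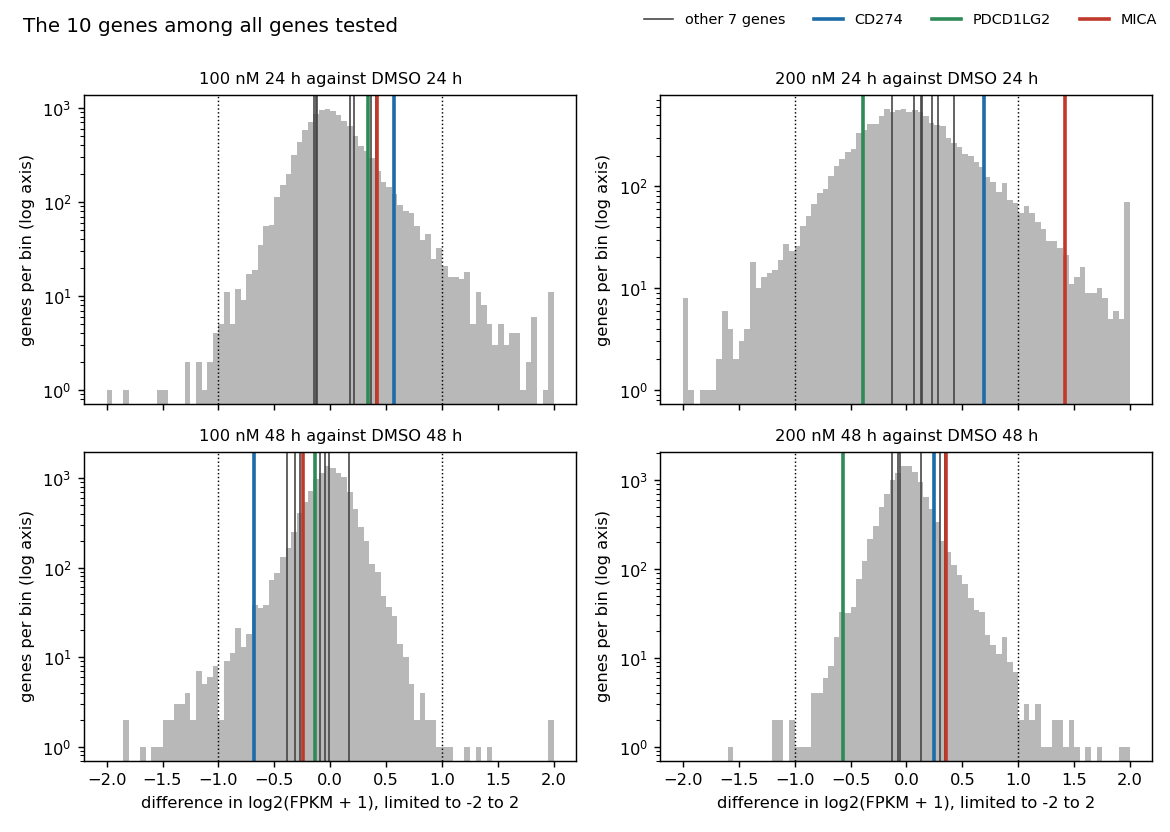
Distribution of the difference in log2(FPKM + 1) over all tested genes (gray bars, genes per bin on a log axis, with values beyond 2 in either direction placed in the end bins) in the 4 comparisons with DMSO, with a vertical line for each of the 10 genes and dotted lines at 2-fold. MICA at 1.42 lies past the dotted line at 200 nM 24 h, and CD274 at -0.68 lies at the lower side at 100 nM 48 h.

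By mean level over the 6 libraries, the order was NECTIN2 (67.68 FPKM), CD47 (38.6), MICA (31.7), CD276 (25.2), PVR (22.2), MICB (19.6), ULBP2 (4.68), ULBP3 (4.44), CD274 (4.22) and PDCD1LG2 (1.15). Neighbors in this order had ranges that did not overlap in 3 places, between NECTIN2 and CD47, between MICB and ULBP2, and between CD274 and PDCD1LG2. The other neighbors overlapped, and ULBP2, ULBP3 and CD274 changed places from library to library. Both ULBP genes and the PD-1 ligands were thus below MICA and MICB in every library.

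The dose order differed between the times. Steps of any size were counted. At 24 h, 4 genes (CD274, CD47, MICA and MICB) were higher at each step of dose, where 32.2% of all expressed genes were. ULBP3 was lower at each step, where 30.7% were. The step from 100 to 200 nM was 0.9966 on the log2 scale for MICA. It was 0.13 for CD274, 0.04 for MICB, 0.02 for CD47 and -0.01 for ULBP3. At 48 h none was higher at each step, against 10.2% of all genes, and PDCD1LG2 and CD276 were lower at each step, against 11.3%. There the step from 100 to 200 nM was -0.43 for PDCD1LG2 and -0.03 for CD276. No counting interval was computed for this step. CD274, MICA and ULBP2 were highest at 200 nM 24 h (24.7% of all genes), CD47, PVR and MICB at 200 nM 48 h (15.0%), and PDCD1LG2 and CD276 in DMSO 48 h (6.56%).

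Among the other NKG2D ligands, 4 were listed and 2, RAET1E and RAET1G, were expressed at 1 FPKM or more. At 200 nM 24 h, 1 of these 2 was called higher, against 4.47% of all tested genes. RAET1G, which encodes ULBP5, was at 2.49, 3.62 and 6.17 FPKM in DMSO, 100 nM and 200 nM at 24 h, and at 4.22, 3.68 and 4.1 at 48 h. RAET1G rose by 1.04 on the log2 scale at 200 nM 24 h, and its difference was 0.40 with 100 nM for 24 h, and -0.16 and -0.03 with 100 and 200 nM for 48 h. Against DMSO 48 h the difference at 200 nM 24 h was 0.46 and the call was lost, as it was after median-of-ratios scaling, at 0.99. The value at 100 nM 24 h turned to -0.18 against DMSO 48 h, and the 48 h values turned to 0.42 and 0.55 against DMSO 24 h. RAET1E differed by -0.42 at 200 nM 24 h, and ULBP1 did not exceed 0.29 FPKM in any library. RAET1G and RAET1L are close copies of ULBP2, so fragments could be shared between them.

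Of the 7 other B7 family ligands, 5 were found, and VSIR was called. At 24 h it was the 1 gene tested at 100 nM, where 1.35% of all tested genes were called higher. At 200 nM 24 h it was 1 of 2 tested, against 4.47%. VSIR, which encodes VISTA, an inhibitory ligand of T cells, was at 2.87, 8.66 and 21.8 FPKM in DMSO, 100 nM and 200 nM at 24 h, and at 8.49, 8.72 and 13.43 at 48 h. It rose by 1.32 and 2.56 on the log2 scale at 24 h, and differed by 0.03 and 0.60 at 48 h. The DMSO libraries differed by 1.29, so against DMSO 48 h the 100 nM 24 h value was 0.03 and the call was lost, while the 200 nM 24 h value was 1.26 and the call was kept. VSIR lies inside CDH23, a gene of the other strand. Of 7 nectin family and related genes, 6 were found and 2 tested, and none was called. NECTIN1 lay between 10.8 and 16.78 FPKM and NECTIN3 between 11.96 and 16.28.

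Of 13 other inhibitory molecules, 12 were found and CD24 was called. It was 1 of 7 tested at each dose for 24 h, against 1.35% of all tested genes called higher at 100 nM and 4.47% at 200 nM. CD24, the ligand of Siglec-10 on macrophages, was at 6.99, 15.76 and 25.57 FPKM at 24 h and at 9.23, 6.41 and 17.36 at 48 h, in the order DMSO, 100 nM and 200 nM. It rose by 1.07 and 1.73 on the log2 scale at 24 h, and against DMSO 48 h these were 0.71, which lost the call, and 1.38. CD24 has close pseudogene copies, which makes its level uncertain. Of the 6 genes of the CD47 axis, THBS1, which encodes the CD47 ligand thrombospondin-1, followed the same order, at 12.4, 28.24 and 44.91 FPKM at 24 h and 18.79, 11.1 and 32.94 at 48 h. THBS1 rose by 1.13 and 1.78 at 24 h, and by 1.21 at 200 nM 24 h against DMSO 48 h, where the value at 100 nM 24 h, 0.56, was not called. Against DMSO 24 h, THBS1 was 1 of 5 tested genes of this axis at each dose, beside the same shares of all genes. QPCTL, the enzyme that modifies CD47 for SIRPα binding, stayed between 8.67 and 11.44 FPKM and was not called. CD47 itself was not called in any of these comparisons.

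**Figure D4:**
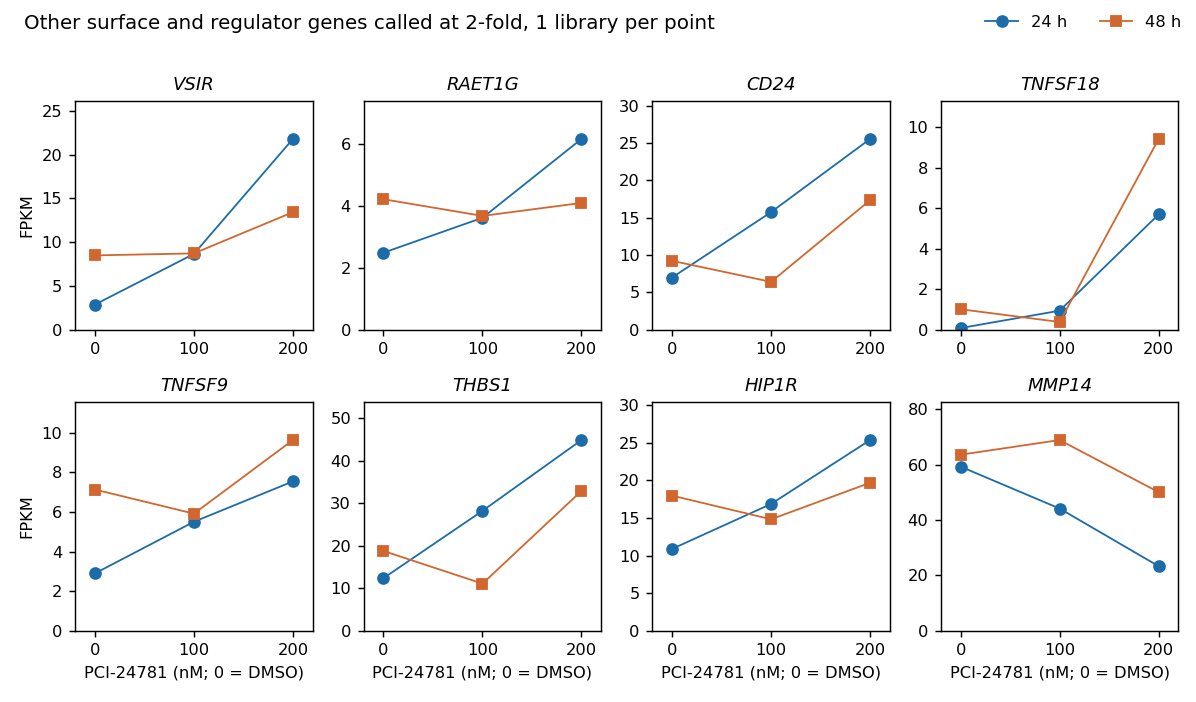
FPKM (vertical axes, starting at 0) of 8 related genes called at 2-fold in at least 1 comparison with DMSO, by dose of PCI-24781 in nM, with circles for 24 h and squares for 48 h and 1 library per point. VSIR reaches 21.8 FPKM and CD24 25.57 at 200 nM 24 h, and MMP14 has its lowest value there, 23.35.

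Among 6 costimulatory TNF family ligands and receptors, TNFSF9 and TNFSF18 were called. At 200 nM 24 h these were 2 of 3 tested, against 4.47% of all tested genes called higher. At 200 nM 48 h, TNFSF18 alone was called, of 4 tested, against 0.206%. TNFSF18, the GITR ligand, was at 0.08, 0.94 and 5.7 FPKM at 24 h and at 1.01, 0.38 and 9.43 at 48 h, in the order DMSO, 100 nM and 200 nM. It rose by 2.63 with 200 nM for 24 h and by 2.38 for 48 h, and against the other DMSO library the values were 1.74 and 3.27, so both calls were kept. TNFSF9, the 4-1BB ligand, was at 2.9, 5.51 and 7.55 FPKM at 24 h and 7.14, 5.92 and 9.64 at 48 h. It rose by 1.13 at 200 nM 24 h, and the call was lost against DMSO 48 h, where the difference was 0.07. None of the 8 adhesion and activating ligands was called with PCI-24781. ICAM1, singled out after its values were seen, was at 17.24 FPKM in DMSO 24 h and 66.25 in DMSO 48 h.

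The genes that act on PD-L1 and on NKG2D ligand shedding were mostly not called. Of 10 genes of PD-L1 stability and trafficking, HIP1R, which directs PD-L1 to the lysosome, was at 10.89, 16.87 and 25.37 FPKM at 24 h and 17.98, 14.83 and 19.69 at 48 h. It rose by 1.15 at 200 nM 24 h, and against DMSO 48 h the difference of 0.47 was not called. Against DMSO 24 h it was 1 of 10 tested at 200 nM, where 4.47% of all tested genes were called higher. CMTM6, which keeps PD-L1 on the surface, lay between 44.88 and 54.72 FPKM. Of 5 sheddases and partners, MMP14, a membrane metalloproteinase that can cleave MICA, was at 59.34, 44.18 and 23.35 FPKM at 24 h and 63.65, 68.95 and 50.11 at 48 h. At 200 nM 24 h it was the 1 gene called lower of 4 tested, against 1.48% of all tested genes. MMP14 fell by 1.31 on the log2 scale at 200 nM 24 h, and the difference against DMSO 48 h was -1.41. Shedding of MICA was not measured. ADAM10 (35.37 to 49.22 FPKM), ADAM17 (18.2 to 29.93) and PDIA6 (116.98 to 150.38) were not called.

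Median differences were taken over all genes found of each list, expressed or not. With 100 and 200 nM for 24 h and then for 48 h, they were 0.23, 0.26, -0.07 and -0.10 for the other NKG2D ligands. For the nectin family and related genes they were 0.07, 0.11, -0.06 and 0.03, and for the other inhibitory molecules 0.03, 0.05, -0.05 and 0.09. For the costimulatory TNF family they were 0.36, 0.60, -0.37 and 0.37, for the CD47 axis 0.11, 0.38, 0.01 and 0.12, and for the sheddases and partners 0.10, 0.14, -0.05 and 0.12. For PD-L1 stability and trafficking they were 0.01, -0.06, -0.04 and -0.00, for the other B7 family ligands 0.10, 0.01, 0 and 0.12, and for the adhesion and activating ligands 0.02, 0.07, 0.02 and 0.03. The medians over all 16623 genes, likewise with no filter, were 0.01, 0.03, -0.01 and 0.01. Over only the 2 tested genes of the nectin list, NECTIN1 and NECTIN3, the medians were 0.27, 0.37, -0.26 and 0.03.

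KLRK1, which encodes NKG2D itself and marks natural killer and T cells, was at 0.08, 0.57 and 0.44 FPKM in DMSO, 100 nM and 200 nM at 24 h, and at 2.04, 0.22 and 2.46 at 48 h. It fell by 1.32 on the log2 scale at 100 nM 48 h, and against DMSO 24 h the difference turned to 0.18. At 100 nM 48 h it was the 1 immune cell marker called lower of 3 tested, against 0.408% of all tested genes. HCST, the signaling partner of NKG2D, did not exceed 0.38 FPKM.

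The genes whose levels ran most like those of each member over the 6 libraries were found by Pearson's r of log2(FPKM + 1) among 8453 genes. All points are the same 6 libraries, and with so many genes high values of r are reached for every member, so the names are a description. They were ETS1 (r = 0.999), LYPD6 and RCAN3 for CD274, PRR36, TIMP1 and CAMK1D for CD276, and FKBP1A, LY6E and PIP4K2C for CD47. For PVR they were TMEM168, MRPL27 and TMEM245, and for NECTIN2 they were SLU7, KLHL36 and ZMIZ1. POLR2H, PUDP and GDE1 ran most like MICA, and XRCC4, GSG1 and TRIM59 most like MICB. TTC5, TRAPPC6B and CALR ran most like ULBP2, and SCYL2, DICER1 and TMEM147 most like ULBP3. PDCD1LG2 was left out because it was under 1 FPKM in some libraries. Among the members themselves, CD274 ran most like PVR (r = 0.90, n = 6), MICA and MICB had r = 0.65, and the most opposite pairs were PDCD1LG2 with ULBP2 (r = -0.95) and NECTIN2 with PVR (r = -0.81). These are the extremes of all pairs. PDCD1LG2 rested on only 21 to 72 fragments per library and ULBP2 on 97 to 132.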

How the data were processed

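MDA-MB-231 cells were sequenced in 6 conditions with 1 library each. The authors deposited FPKM for each gene, with 2 decimals. The submitters' processing notes name Bowtie2, RSEM and hg19, with no order, role or version, and the library was made after mRNA enrichment or rRNA depletion. The files hold no counts, p-values or fold changes. RSEM divides fragments that match several transcripts by estimation, which can move the levels of close copies. Symbols were matched through the NCBI Gene ID in RefSeq (GRCh38.p14), which held 16585 of 16623 genes and lacked 38. The members, the lists and the call rule, which follows an earlier analysis of these files, were chosen with earlier results of these data known.

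From the FPKM, log2(FPKM + 1) was compared with the DMSO library of the same time, over all genes with at least 1 FPKM in either library. Depth was inferred from the steps of 1 fragment in the low values of single-transcript genes (500 to 1500 bases, lengths of GENCODE release 29), from 202 to 242 genes per library, and is approximate. Counting intervals are exact conditional binomial (Clopper-Pearson) 95% intervals of the ratio, with fragments computed from the shortest transcript of each gene. All 10 members were named, list genes where called with PCI-24781 or where a partner or processing enzyme of a member, and the 3 genes most like each member among those with at least 1 FPKM in all 6 libraries and a range of at least 0.3 log2. 1 of the gene lists is not reported here. Alternatives were pseudocounts of 0.1 and 0.01, rescaling to TPM or by median-of-ratios factors, other filters, a 1.5-fold threshold, and other reference libraries. Python 3.11.15, numpy 2.4.6, pandas 2.3.3, scipy 1.17.1, Biopython 1.88 and matplotlib 3.10.9 were used.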

Additional observations from a re-analysis of the deposited data

Results flagged for a closer look

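CD276 and RAET1G differed in direction between the times. CD276 was above DMSO at both doses at 24 h, by 0.37 and 0.28 on the log2 scale, and below DMSO at both doses at 48 h, with differences of -0.05 and -0.08 whose counting intervals included 0, so that the mean difference between the times was 0.39. RAET1G was above DMSO at both doses at 24 h, by 0.40 and 1.04, and below at both doses at 48 h, by -0.16 and -0.03, with a mean difference between the times of 0.82. Both doses at a time have the same DMSO reference, each condition has 1 library, and the difference between the times was not tested. The directions rest on the DMSO library used. Against the DMSO library of the other time, CD276 was at -0.24 and -0.32 for 24 h and at 0.56 and 0.53 for 48 h, and RAET1G was at -0.18 and 0.46 for 24 h and at 0.42 and 0.55 for 48 h.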

How the results depend on the processing

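No paired analysis was possible because no condition has more than 1 library, and for the same reason no library could be left out of a group. With a 1.5-fold threshold, 2 members (CD274 and MICA) were called higher at 200 nM 24 h, against 12.5% of all tested genes. With the same threshold 1 (CD274) was called lower at 100 nM 48 h, against 1.75%, and 1 (CD276) higher between the DMSO libraries, against 8.49%. With a pseudocount of 0.01, 1 (PDCD1LG2) was called lower at 200 nM 48 h, where 27 of 11665 tested genes were called lower. With DMSO of the other time as the reference, the median member difference was 0.0606 and 0.0531 with 100 and 200 nM for 24 h and -0.0245 and 0.36 for 48 h, and KLRK1 at 100 nM 48 h turned to 0.18. With the mean of both DMSO libraries it was 0.13 at 100 nM 24 h. The 100 nM library of the same time was added as a reference after seeing the data. At 200 nM 24 h it gave 0 calls of members and a median of 0.0323, where 40 of 11651 tested genes were called higher and 21 lower. At 200 nM 48 h it gave a median of 0.38. Alternatives for the named genes of the lists were also added after seeing the data. MICA at 200 nM 24 h kept its call under each alternative except the 100 nM reference. With that reference RAET1G, CD24, TNFSF9, THBS1, HIP1R and MMP14 also lost their calls at 200 nM 24 h. Of 40 medians 33 moved by under 0.1 on the log2 scale, as did 208 of 300 member differences. The medians with no filter are among the 33 and could not move, since the main medians already covered all members. Of 480 differences of the named list genes, 304 moved by under 0.1, 175 by more, and 1 called difference changed sign. The cause of these changes was not tested. Without replicates, a difference between conditions cannot be set against the variation between cultures, and for PDCD1LG2, ULBP2 and ULBP3 counting error alone leaves wide intervals.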
